A study of Mus musculus with 28 samples.

Results

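The 10 genes described here are transcribed in neutrophils and were taken by symbol: S100a8, S100a9, Csf3r, Cxcr2, Trem1, Retnlg, Mmp8, Mmp9, Il1b and Il1r2. All 10 were found, each under 1 gene identifier, among the 53392 genes of the deposited transcript files. Their RNA was measured in 2 fractions of the kidney of FVB males, an endothelial fraction bound to CD31 microbeads after enzymatic digestion and proximal tubules collected by microdissection. CD31 is also carried by leukocytes and platelets, so bead capture does not leave endothelium alone. Mice had either no injury (sham) or acute kidney injury (AKI, IR in the tables), which was left untreated or combined with scrambled miRNA, with exosomes or with the mimic of miR-486-5p. Each group had 3 libraries, except the mimic groups with 2, and every treated group carried the injury. Libraries could be read singly for the scrambled-miRNA, exosome and mimic groups, 16 libraries with 8273783 to 25326882 reads each; sham and untreated injury were used through the authors' deposited comparison tables. RNA came from 3 mice a group according to the protocol, the mimic groups from 2 according to the design text, and no label ties a library to a mouse, so p-values measure only the spread between these libraries.

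Neutrophils are short-lived granulocytes that leave the bone marrow under G-CSF, are drawn into injured tissue by chemokines acting on CXCR2, and are among the first leukocytes to enter a kidney after ischemia. S100A8 and S100A9 pair to form calprotectin, an abundant cytosolic protein of neutrophils and monocytes that is released as an alarmin. CSF3R is the receptor for G-CSF, and TREM1 is a surface receptor that signals through the adaptor DAP12 and amplifies inflammatory responses. RETNLG is a small secreted resistin-like protein, MMP8 is the neutrophil collagenase and MMP9 is gelatinase B. IL1B is a proinflammatory cytokine made by neutrophils, monocytes and macrophages, and IL1R2 is a decoy receptor that binds it without signalling. Several of these genes, Il1b and Trem1 among them, are also transcribed in monocytes and macrophages.

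S100a8 and S100a9 lie 22596 bases apart on chromosome 3 of GRCm38, S100a8 at chr3:90668978-90670035 on the forward strand and S100a9 at chr3:90692632-90695721 on the reverse strand. Mmp8 is at chr9:7558456-7568485 on the forward strand. The 250 bases before the start of these 3 genes are shown because S100a8 and Mmp8 had the lowest fitted folds under exosomes and S100a9 encodes the partner of S100A8. They come from RefSeq (GRCm38.p6), are written in the direction of transcription, and carry motif matches in capitals.

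S100a8, chr3:90668821-90669070, forward strand: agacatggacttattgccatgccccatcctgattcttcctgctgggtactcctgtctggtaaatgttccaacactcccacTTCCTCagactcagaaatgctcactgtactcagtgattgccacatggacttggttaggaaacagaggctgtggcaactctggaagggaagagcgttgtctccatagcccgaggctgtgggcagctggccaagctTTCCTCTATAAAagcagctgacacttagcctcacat

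S100a9, chr3:90695722-90695971, reverse strand: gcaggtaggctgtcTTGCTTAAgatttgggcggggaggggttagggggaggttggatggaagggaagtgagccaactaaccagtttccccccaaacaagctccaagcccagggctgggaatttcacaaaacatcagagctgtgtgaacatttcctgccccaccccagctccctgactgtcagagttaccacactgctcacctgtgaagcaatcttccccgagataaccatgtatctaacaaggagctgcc

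Mmp8, chr9:7558179-7558428, forward strand: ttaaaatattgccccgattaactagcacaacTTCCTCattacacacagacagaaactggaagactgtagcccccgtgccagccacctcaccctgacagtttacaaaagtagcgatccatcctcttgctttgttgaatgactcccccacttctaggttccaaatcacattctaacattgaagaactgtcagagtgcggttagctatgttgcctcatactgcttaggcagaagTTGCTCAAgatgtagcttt

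Both strands were searched for a C/EBP motif (TTGCNNAA), a PU.1 motif (GAGGAA), an AP-1 motif (TGANTCA), an NF-kB motif and a TATA box (TATAAA). C/EBP factors and PU.1 are transcription factors of the granulocyte lineage. In S100a8 a reverse-strand PU.1 match began 170 bases before the start, and another, at 36 bases, ran directly into a TATA box at 30 bases without overlapping it. In S100a9 a C/EBP match began 236 bases before the start. In Mmp8 a C/EBP match began 19 bases and a reverse-strand PU.1 match 219 bases before the start. Of the 9 members with a RefSeq promoter, 3 held the C/EBP motif (S100a9, Mmp8 and Retnlg), against 9.56% of 32851 promoters of this length. The PU.1 motif was found in 5 of the 9 (Cxcr2, S100a8, Csf3r, Mmp8 and Trem1), against 23.3% of all. The TATA box was found in S100a8 and Il1b, against 12.4% of all, the NF-kB motif in Csf3r, against 1.21%, and the AP-1 motif in none, against 6.75%. Mmp9 was not in the promoter table. These are letter matches only.

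Levels between genes were compared in TPM, which divides reads by transcript length and scales to a fixed total. Over the 8 endothelial libraries Il1b was the most abundant member at 32.8 ± 14.8 TPM (SD, n = 8), followed by S100a9 at 13.9 ± 10.3 and S100a8 at 11.1 ± 8.54. Retnlg (2.87 ± 1.94), Trem1 (1.61 ± 0.761), Csf3r (0.994 ± 0.83) and Mmp9 (0.708 ± 0.69) formed a middle group in TPM. Il1r2 (0.326 ± 0.205), Mmp8 (0.286 ± 0.313) and Cxcr2 (0.284 ± 0.171) were lowest. The ranges over the 8 libraries overlapped for all neighbours in this order, Il1b (13.3 to 50.3 TPM) and S100a9 (3.76 to 33.6) included. In the 8 tubular libraries S100a8 (2.93 ± 5.97 TPM), Il1b (2.8 ± 1.68) and S100a9 (2.44 ± 3.55) led, and the other 7 members averaged 0.222 TPM or less. These are low levels: over all 8 libraries of a cell type, Il1r2 had 72 reads in endothelial and 10 in tubular cells, Mmp8 127 and 5, and Retnlg 211 and 7.

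The label was checked against genes that define neutrophils and their precursors. Camp, Elane and Mpo, granule genes transcribed mainly in the bone marrow, had 0 reads in all 8 endothelial libraries. Ly6g, the gene of the surface antigen by which mouse neutrophils are usually gated, had 3 reads at most and was at 0 in 6 of 8 endothelial libraries. Ngp, Prtn3, Ctsg, Cd177, Cebpe, Stfa2l1, Stfa2 and Padi4 had 11 reads or fewer in every endothelial library. Genes that neutrophils share with macrophages were present in all endothelial libraries, among them the integrin genes Itgam (149 to 468 reads) and Itgb2 (276 to 763). Granule genes were not all missing: Ltf had 5 to 89 reads and Lcn2, which injured tubules also make, 163 to 7466. Clec4d (7 to 58 reads) and Fpr1 (3 to 18) were also present in all 8. Of the 32 other neutrophil genes listed, 20 had reads in all 8 endothelial libraries, 9 in some and 3 in none; the genes named here were picked after their values were seen. The 10 genes are called members below, without assigning their RNA to a cell type. Endothelial markers were high in the CD31 fraction (Esam 235.3 ± 101.8 TPM, n = 8, against 13.1 ± 8.29 in tubular libraries), but so was Umod of the thick ascending limb, at 3505.2 to 11616.5 TPM.

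One tubular library stood apart for these genes. Replicate 2 of the tubular scrambled-miRNA group held 361 of the 970 reads that the 10 genes had in the 8 tubular libraries, 37.2%, although it held 8.62% of all tubular reads. The tubular folds below are therefore also given without it where the gene could still be tested. Among endothelial libraries, exosome replicate 2 had the levels of a scrambled-miRNA library for several members, as given below. Exosome replicate 1 stood apart in proximal tubule genes. Summed over 14 of these, it had 21101.8 normalized CPM (defined below), against 4427.8 and 3490.9 in exosome replicates 2 and 3. It was the lowest endothelial library for S100a9, Retnlg, Mmp9 and Il1r2.

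To compare groups, reads per library were expressed as normalized CPM, counts over the library total scaled by edgeR's TMM factors within each cell type. TPM was not used for this, since the median gene shifted by -0.41 log2 units in endothelial exosome libraries against scrambled miRNA. In endothelial cells all 10 members had a negative log2 fold against scrambled miRNA under either treatment, with exosome and mimic medians of -1.23 and -0.94 where the medians of all 16316 genes tested were 0.02 and 0.01. No member passed edgeR's quasi-likelihood test at an adjusted p of 0.05 in either comparison, and neither did any other gene (0% of 16316, higher or lower). With exosomes 4 members had an unadjusted p under 0.05, where 11.4% of all genes did, and DESeq2 called 2 lower, S100a8 and Mmp8, where it called 0.766% lower. With the mimic the counts were 1, against 19.5% of genes, and 0, against 3.94%. Both comparisons share the scrambled-miRNA libraries.

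The alarmin genes were lowest with exosomes. S100a8 stood at 5.76, 12.1 and 9.26 normalized CPM in the endothelial scrambled-miRNA libraries, at 2.08, 2.24 and 1.59 with exosomes and at 3.73 and 8.21 with the mimic. Every exosome library lay below every scrambled-miRNA library, and the mimic libraries lay above the exosome libraries and overlapped the scrambled-miRNA range. The log2 fold was -2.19 (SE 0.41, adjusted p = 0.186 by edgeR) with exosomes and -0.59 (SE 0.428, adjusted p = 0.495) with the mimic; DESeq2 gave -2.21 (SE 0.459, adjusted p = 0.000648) with exosomes. S100a9 stood at 6.35, 12.6 and 19.4 normalized CPM with scrambled miRNA, 2.33, 7.45 and 3.62 with exosomes, while mimic libraries had 5.07 and 6.37. The groups overlapped, because scrambled-miRNA replicate 1 lay below exosome replicate 2 and just below mimic replicate 2. Its log2 fold was -1.52 with exosomes (SE 0.494, adjusted p = 0.287) and -1.16 with the mimic (SE 0.551, adjusted p = 0.285).

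Csf3r, Cxcr2 and Trem1 encode receptors. Csf3r had 7.04, 5.44 and 4.62 normalized CPM with scrambled miRNA, 1.91, 4.68 and 2.14 with exosomes, while mimic libraries had 1.75 and 3.5. Both mimic libraries and exosome replicates 1 and 3 lay below all scrambled-miRNA libraries, while exosome replicate 2 reached their lower end; the log2 folds were -0.97 (SE 0.445, adjusted p = 0.459) and -1.10 (SE 0.503, adjusted p = 0.271). Cxcr2 had 0.795, 3.08 and 3.06 normalized CPM with scrambled miRNA, 2.13, 1.11 and 1.04 with exosomes, while mimic libraries had 1.02 and 1.66. Its lowest library was scrambled-miRNA replicate 1, so the groups overlapped, and the log2 folds were -0.66 (SE 0.612) and -0.78 (SE 0.684). Trem1 had 13.7, 11.1 and 11.4 normalized CPM with scrambled miRNA, 6.32, 15.3 and 6.35 with exosomes, while mimic libraries had 3.45 and 7.29. Exosome replicate 2 was the highest of all 8 libraries, whereas both mimic libraries lay below the scrambled-miRNA range. The log2 fold of Trem1 was -0.37 with exosomes (SE 0.401, adjusted p = 0.805) and -1.15 with the mimic (SE 0.463, adjusted p = 0.218). Without exosome replicate 2 the Trem1 fold with exosomes was -0.92 (SE 0.345, adjusted p = 0.297), and that of Csf3r was -1.48 (SE 0.445, adjusted p = 0.188). Over the main fit and all its alternatives these folds ran from -0.92 to -0.15 for Trem1 and from -1.48 to -0.74 for Csf3r.

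Of the secreted proteins, Mmp8 differed most. Mmp8 was at 3.57, 1.35 and 2.27 normalized CPM with scrambled miRNA (12 to 36 reads), 0.25, 0.24 and 0.265 with exosomes (3 reads in each library), while mimic libraries had 0.493 and 1.44. The exosome libraries lay below all others, while 1 mimic library lay between the groups and the other within the scrambled-miRNA range. The log2 fold was -3.21 with exosomes (SE 0.692, adjusted p = 0.191) and -1.28 with the mimic (SE 0.684, adjusted p = 0.342); by DESeq2 the exosome fold was -3.26 (SE 0.818, adjusted p = 0.00771). Retnlg was at 2.68, 4.49 and 2.44 normalized CPM with scrambled miRNA, 0.582, 1.76 and 1.32 with exosomes, while mimic libraries had 1.69 and 1.88. Both treated groups lay below the scrambled-miRNA group without overlap, with log2 folds of -1.38 (SE 0.508, adjusted p = 0.348) and -0.83 (SE 0.555, adjusted p = 0.45). Mmp9 was at 3.38, 2.02 and 3.37 normalized CPM with scrambled miRNA, 0.25, 1.44 and 2.12 with exosomes, while mimic libraries had 1.27 and 1.56. The mimic libraries lay below the scrambled-miRNA group and the exosome libraries overlapped it; the folds were -1.20 (SE 0.655, adjusted p = 0.551) and -1.04 (SE 0.728, adjusted p = 0.474). With an offset for the transcript lengths behind each library, the Mmp9 fold with exosomes was -2.22 (SE 0.558, adjusted p = 0.223), the cause of which was not tested.

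In the interleukin-1 system Il1b had by far the most reads, 330 to 1438 per endothelial library. It stood at 59.8, 67.7 and 61.8 normalized CPM with scrambled miRNA, 32.2, 70.3 and 29.1 with exosomes, while mimic libraries had 34.5 and 57.6. Exosome replicate 2 was again the highest of the 8 libraries and the other 2 exosome libraries the lowest. The log2 folds were -0.52 (SE 0.335, adjusted p = 0.62) and -0.45 (SE 0.377, adjusted p = 0.557), and without exosome replicate 2 the former was -1.03 (SE 0.235, adjusted p = 0.107). Over the main fit and all its alternatives the Il1b fold with exosomes ran from -1.03 to -0.32. Il1r2 had 0.397, 1.01 and 1.43 normalized CPM with scrambled miRNA, 0.166, 0.481 and 0.529 with exosomes, while mimic libraries had 0.422 and 0.881. These values rest on 2 to 22 reads per library, the groups overlapped, and the folds were -1.26 (SE 0.776) and -0.52 (SE 0.818).

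By these values 3 members, S100a8, Retnlg and Mmp8, had all exosome libraries below all scrambled-miRNA libraries, where 5.96% of the 16316 genes did. For the mimic it was 5 members, Csf3r, Retnlg, Mmp9, Il1b and Trem1, against 21.8% of genes. On the TPM scale the counts were 9 and 8 members, against 23% and 26.2% of genes. Directly between the treated groups, S100a8 and Mmp8 had both mimic libraries above all exosome libraries, against 10.2% of genes; their log2 folds of mimic over exosomes were 1.60 (SE 0.435) and 1.93 (SE 0.73), each with an adjusted p of 0.988 by edgeR. No member passed in that comparison (0% of genes), 2 had an unadjusted p under 0.05 (4.05% of genes), and the median fold was 0.26. DESeq2 called none, where it called 0.00613% of genes higher and 0.0245% lower. Without the filter on low counts edgeR called S100a8 higher there, against 0.208% of genes.

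**Figure D1:**
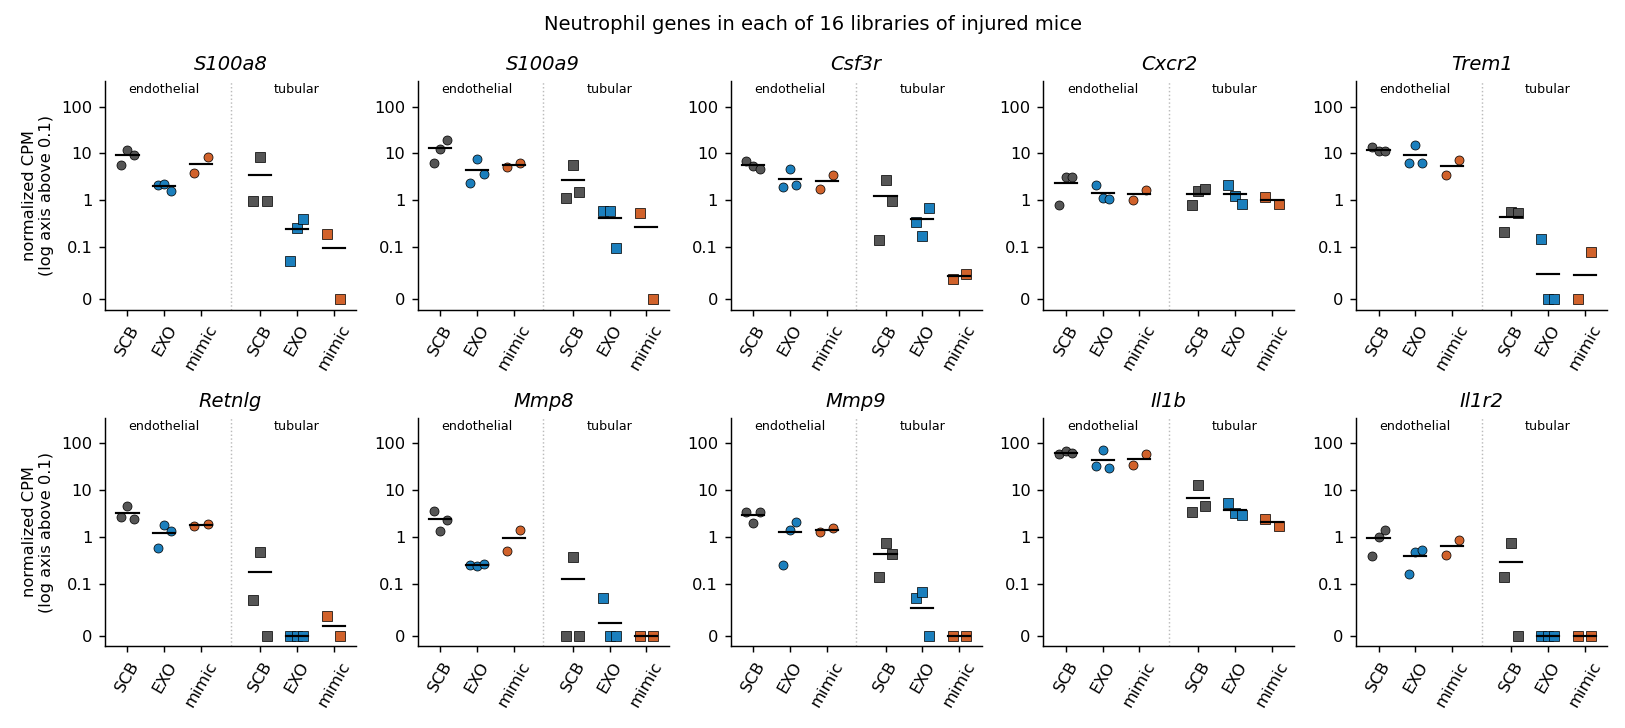
Normalized CPM of each of the 10 genes (vertical axis, logarithmic above 0.1 and linear below) in 16 libraries, by group of injured mice given scrambled miRNA (SCB), exosomes (EXO) or the mimic. Circles are endothelial and squares tubular libraries, and the bar is the group mean. S100a8, Retnlg and Mmp8 have no overlap between endothelial EXO and SCB libraries.

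In tubular cells 5 of the 10 members had enough reads to be tested (S100a8, S100a9, Csf3r, Cxcr2 and Il1b), and a member that is high in only 1 group can pass that filter through that group. S100a8 had 14, 91 and 9 reads in the scrambled-miRNA libraries, or 0.973, 8.54 and 0.96 normalized CPM. With exosomes it had 0.0736, 0.254 and 0.393 normalized CPM and with the mimic 0.195 and 0. Scrambled-miRNA replicate 2 was 8.54 against 0.973 in the next library, and the treated libraries lay below all 3 scrambled-miRNA libraries. The log2 fold was -3.86 with exosomes (SE 1.19, adjusted p = 0.0896) and -4.98 with the mimic (SE 1.45, adjusted p = 0.168); without scrambled-miRNA replicate 2 these were -2.05 (SE 1.09, adjusted p = 0.315) and -3.15 (SE 1.24, adjusted p = 0.289).

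S100a9 had 1.11, 5.63 and 1.49 normalized CPM with scrambled miRNA, 0.589, 0.592 and 0.0981 with exosomes, while mimic libraries had 0.546 and 0. Again no treated library reached the scrambled-miRNA range. Its folds were -2.63 (SE 1.11, adjusted p = 0.181) and -3.25 (SE 1.3, adjusted p = 0.262), and -1.59 and -2.18 without replicate 2. Csf3r had 0.141, 2.66 and 0.964 normalized CPM with scrambled miRNA, 0.342, 0.17 and 0.667 with exosomes, while mimic libraries had 0.0394 and 0.0483, the last 2 being 1 read each. The mimic libraries lay below all others (fold -4.61, SE 1.39, adjusted p = 0.173), and the exosome libraries overlapped the scrambled-miRNA group (fold -1.59, SE 0.999). Without replicate 2 Csf3r no longer passed the filter on low counts, so it has no fold there.

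Il1b had 3.41, 12.6 and 4.58 normalized CPM with scrambled miRNA, 5.37, 3.21 and 2.94 with exosomes, while mimic libraries had 2.42 and 1.74. Both mimic libraries and exosome replicates 2 and 3 were below all scrambled-miRNA libraries, and exosome replicate 1 was not; the folds were -0.82 (SE 0.502, adjusted p = 0.348) and -1.71 (SE 0.586, adjusted p = 0.209), and without replicate 2 they were -0.07 and -0.93. Cxcr2 differed from the rest, with 0.809, 1.58 and 1.78 normalized CPM with scrambled miRNA, 2.09, 1.22 and 0.831 with exosomes, while mimic libraries had 1.18 and 0.837. Its groups overlapped, and the folds were -0.05 (SE 0.567) and -0.49 (SE 0.628), or 0.03 (SE 0.664) and -0.38 (SE 0.721) without replicate 2.

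No member was called in the tubular comparisons with scrambled miRNA, where 2.41% of 14913 genes were lower with exosomes and 0.00671% with the mimic. An unadjusted p under 0.05 was found for 2 members with exosomes, against 24.8% of genes, and 4 with the mimic, against 16.3%. DESeq2 called 1 (S100a8) lower with exosomes, against 6.05% of genes, and 2 (S100a8 and Csf3r) with the mimic, against 3.17%; it was not run without replicate 2. The exosome groups did not overlap the scrambled-miRNA group from below for 2 members, against 14.5% of genes, and the mimic group for 4 (S100a8, S100a9, Csf3r and Il1b), against 15.9%. Between mimic and exosomes no tubular member was called by edgeR (0% of genes). DESeq2 called none either, where it called 0.436% of genes higher and 1.16% lower. None had an unadjusted p under 0.05, against 12.4% of genes. Csf3r and Il1b were lower in both mimic libraries than in all exosome libraries, against 20.6% of genes. Without scrambled-miRNA replicate 1, edgeR called Csf3r lower with the mimic (-5.13, SE 1.09, adjusted p = 0.047). In that fit 299 of 14746 genes were lower. It kept scrambled-miRNA replicate 2, the highest library, and each mimic library held 1 Csf3r read.

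The other 5 members were at the limit of detection in tubular cells. Retnlg had 6 reads in the scrambled-miRNA group, 5 of them in replicate 2, and 0 reads with exosomes, at least 2.37-fold lower when the group at 0 is set to 3 reads. Il1r2 had 10 reads in the scrambled-miRNA group and 0 in both treated groups, at least 3.94-fold and 5.15-fold lower. Mmp9 had 14 reads with scrambled miRNA, 2 in exosome and 0 in mimic libraries, at least 7.21-fold lower in the latter. Mmp8 had 4 reads with scrambled miRNA, all in replicate 2, and Trem1 had 14, 2 and 2 reads in the 3 groups. These bounds allow for counting error in the group at 0 only. They take the few scrambled-miRNA reads as exact, so the differences could be smaller than stated. Scrambled-miRNA replicate 2 held 5 of the 6 Retnlg reads, all 4 of Mmp8, 8 of 10 of Il1r2 and 8 of 14 of Mmp9.

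**Figure D2:**
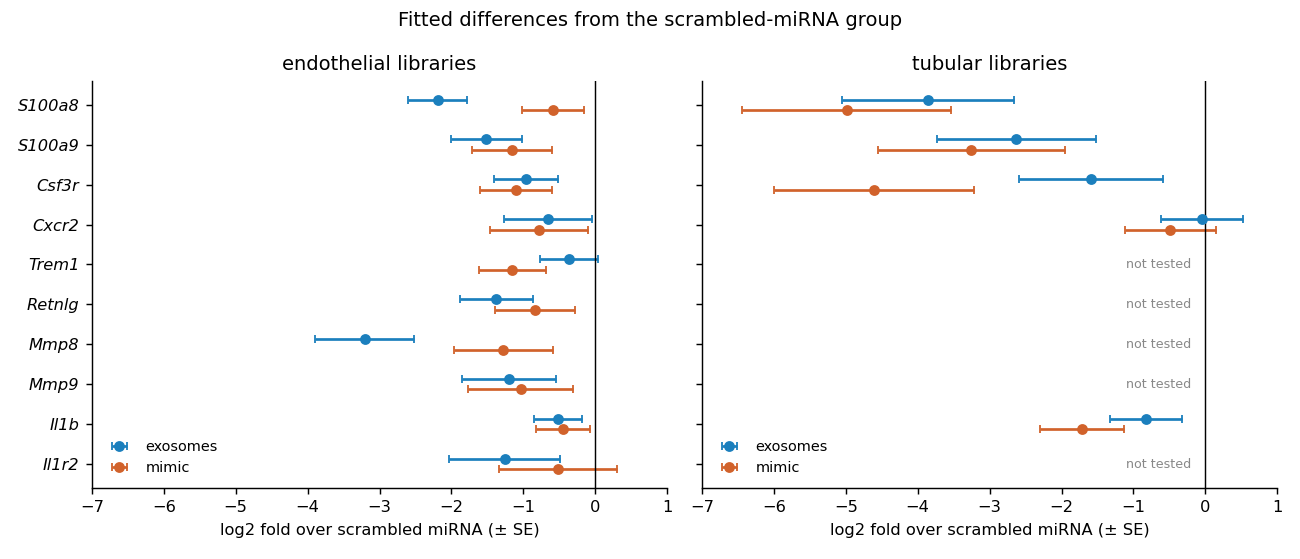
Log2 fold (horizontal axis) of exosome (blue) and mimic (orange) libraries over scrambled-miRNA libraries for each gene, with its standard error as a bar, in endothelial (left) and tubular (right) cells. All folds are at or below -0.05, and 5 genes were not tested in tubular cells.

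The differences were set against those in the other cell type. For exosomes no member had an interaction of cell type with treatment past the threshold (0% of 17143 genes). None had an unadjusted p under 0.05, against 7.78% of genes. For the mimic none passed (0%), 4 had an unadjusted p under 0.05, against 15.5% of genes, and DESeq2 called 1 higher, against 1.88%. The estimates were wide: for S100a8 the endothelial minus tubular difference in log2 fold was 1.65 (SE 1.23) with exosomes and 4.37 (SE 1.38, adjusted p = 0.174) with the mimic.

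Over 16 libraries 9 of the 10 members were higher in endothelial than in tubular libraries by edgeR, where 36.3% of 17143 genes were higher. Trem1, Retnlg, Mmp9, Mmp8 and Il1r2 had 5 to 18 tubular reads in all and passed the filter on low counts through the endothelial libraries, so the filter itself favours their being higher and the count of 9 supports nothing for them. Trem1 was 6.05 log2 units higher (SE 0.471, adjusted p = 8e-08), Retnlg 5.56 (SE 0.715), Mmp9 4.63 (SE 0.642), Mmp8 4.46 (SE 0.803) and Il1r2 4.33 (SE 0.911, adjusted p = 0.0013). Il1b was 3.53 higher (SE 0.299), Csf3r 3.39 (SE 0.526), S100a8 3.21 (SE 0.571) and S100a9 3.09 (SE 0.533). Cxcr2 was the exception, with a difference of 0.21 (SE 0.365, adjusted p = 0.639) and 0.114 to 0.354 TPM in tubular libraries against 0.136 to 0.574 in endothelial ones. All Cxcr2 reads were assigned to the longer transcript Cxcr2-202 in both cell types. In bulk libraries fewer cells that transcribe a gene and less RNA of it per cell cannot be told apart.

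**Figure D3:**
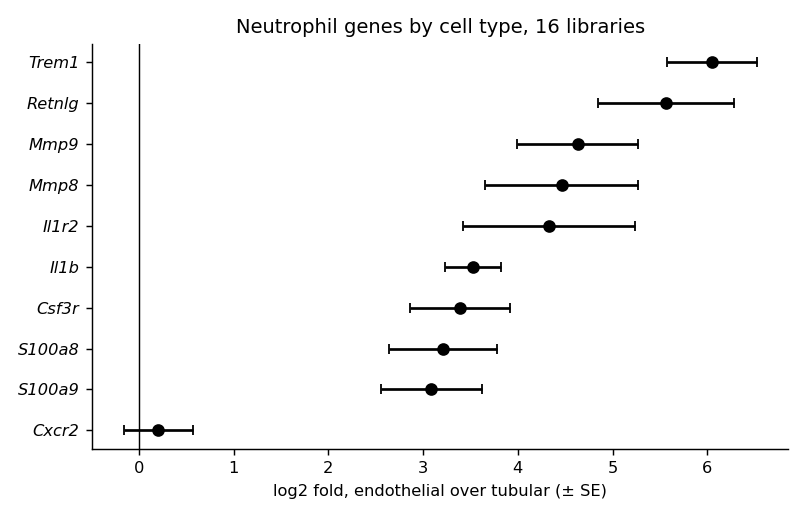
Log2 fold of endothelial over tubular libraries (horizontal axis) for each gene, with its standard error, from a fit of 16 libraries. Trem1 is highest at 6.05 and Cxcr2, at 0.21, is the gene whose bar reaches 0.

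Sham and untreated mice enter through the authors' deposited tables, whose folds and standard errors are the authors' and differ in scale between tables; in the tubular mimic table against sham every member lay between -0.03 and 0.03. In the authors' deposited table of untreated injury against sham, 9 of the 10 members were higher in endothelial cells, where 3.3% of genes were. Il1r2 had the largest fold at 7.57 (SE 1.34, adjusted p = 1.53e-06), then Mmp9 at 5.62 (SE 0.99), Mmp8 at 5.11 (SE 1.09), S100a8 at 3.68 (SE 0.82), Retnlg at 3.23 (SE 1.01) and S100a9 at 3.17 (SE 0.81) in the authors' deposited table. Il1b (2.16, SE 0.94), Trem1 (2.05, SE 0.83) and Cxcr2 (1.5, SE 0.72, adjusted p = 0.0361) were higher by less in the authors' deposited table, and Csf3r was not called (0.98, SE 1.12, adjusted p = 0.115).

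In the authors' deposited table of exosome-treated injury against the same sham mice 5 members were higher, Mmp8, Mmp9, Il1r2, Il1b and Trem1, against 3.35% of genes. The mimic table also had 5, S100a8, Mmp8, Mmp9, Il1r2 and Il1b, against 3.93%. The alarmins were 0.26 (S100a8, SE 0.45, adjusted p = 0.326) and 0.30 (S100a9, SE 0.48, adjusted p = 0.287) with exosomes, and 1.94 (SE 0.98, adjusted p = 0.031) and 0.74 (SE 0.82) with the mimic, in the authors' deposited tables. Il1b stood at 2.63 (SE 0.89) and 2.64 (SE 0.96) in those tables, beside its 2.16 in untreated injury. Retnlg was not called in either (0.35 and 0.90). These 3 tables share the sham mice.

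Untreated against treated injury was tabulated as well. In the authors' deposited table of endothelial untreated injury against exosomes, S100a8 (2.15, SE 0.89, adjusted p = 0.0228) and Il1r2 (3.42, SE 1.01, adjusted p = 0.00425) were higher in untreated mice, 2 of 10 members against 1.83% of genes, and Il1b (-0.04) and Trem1 (-0.02) were near 0. Against the mimic 1 member, Il1r2, was higher in untreated mice (3.11, SE 1.24, adjusted p = 0.00643), against 6.46% of genes. Against scrambled miRNA 0 of 10 were called, where 0.344% of genes were higher, and the members' folds ran from -0.12 to 0.13 in the authors' deposited table.

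In tubular cells the authors' deposited table of untreated injury against sham had 9 members with an adjusted p, of which 5 were higher: S100a8 (5.02, SE 1.47), S100a9 (3.75, SE 1.22), Retnlg (5.19, SE 2.02), Trem1 (4.59, SE 1.34) and Cxcr2 (0.96, SE 0.45), against 11.5% of genes. With exosomes against sham 0 of 8 were higher (6.24% of genes), with folds from -0.39 for Il1b to 0.67 for Cxcr2, and with the mimic against sham 0 of 10 (0.0448% of genes). Untreated injury was higher than exosome-treated injury for 7 of 10 members (S100a8, S100a9, Retnlg, Mmp9, Il1r2, Il1b and Trem1; 17.6% of genes) and higher than mimic-treated injury for 7 (S100a8, S100a9, Csf3r, Retnlg, Mmp9, Il1b and Trem1; 14.1%). S100a9 was 3.66 (SE 1.2) above exosomes and 4.68 (SE 1.43) above the mimic in the authors' deposited tables, and Il1b 1.25 (SE 0.63) and 1.42 (SE 0.76). Against scrambled miRNA 0 of 9 were called, where 11.1% of genes were higher. The authors' mean normalized count over tubular samples ran from 7.77 for Mmp8 to 230.0 for Il1b.

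**Figure D4:**
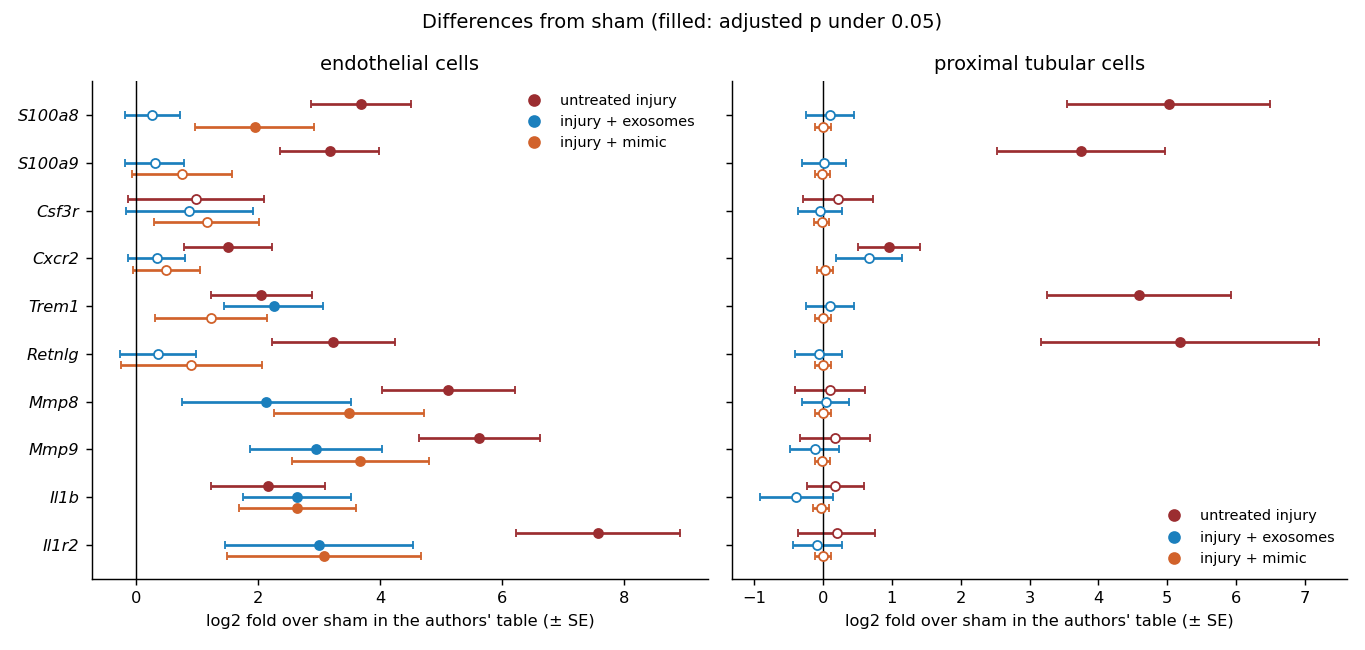
Log2 folds over sham (horizontal axis, with standard errors) in the authors' deposited tables, for untreated (red), exosome-treated (blue) and mimic-treated (orange) injury in endothelial (left) and tubular (right) cells. Filled points have an adjusted p under 0.05, as 9 of 10 do in untreated endothelial injury.

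Some markers of other cells differed between the same groups. Summed over the 10 genes, normalized CPM in endothelial libraries was 103.5 to 121.0 with scrambled miRNA, 48.1 to 105.0 with exosomes and 53.4 to 90.4 with the mimic. Summed over 17 macrophage and monocyte genes, it was 675.8 to 762.8, 351.1 to 616.3 and 367.1 to 652.7 in the same groups, with no overlap with scrambled miRNA. Cd14 alone averaged 162.7, 52.4 and 49.4 of these sums. With either treatment edgeR called 0 of the 17 (0% of genes). DESeq2 called 2 lower (Cd14 and Chil3) with each, against 0.766% of genes with exosomes and 3.94% with the mimic. In tubular libraries the members summed to 7.0 to 33.9, 4.93 to 8.76 and 2.72 to 4.42, and the macrophage genes to 88.9 to 195.5, 56.2 to 85.5 and 42.2 to 51.7. The 14 endothelial genes overlapped between all endothelial groups (1914.5 to 3376.6 with scrambled miRNA, 2283.6 to 2949.6 with exosomes). The 8 platelet genes were at 28.6 to 45.1 with scrambled miRNA, 15.4 to 23.9 with exosomes and 23.9 in both mimic libraries, while lymphocyte genes had positive folds in 11 of 11 (medians 0.77 and 0.87). The macrophage genes' median fold was -0.26 with exosomes and -0.43 with the mimic, beside the members' -1.23 and -0.94. The 7 thick ascending limb genes were at 7880.1 to 21697.9, 21732.4 to 39501.0 and 43767.5 to 45356.4 in the endothelial groups. In TPM, per length, the members summed to 102.0 ± 10.9, 33.8 ± 14.5 and 56.5 ± 25.1 in these groups. The median gene shifted in TPM as well, by -0.41 log2 units with exosomes and -0.2 with the mimic, so TPM sums overstate the difference. Mean sums in normalized CPM were 114.5 ± 9.58, 67.1 ± 32.8 and 71.9 ± 26.2 (SD). Il1b, also transcribed in macrophages, alone averaged 63.1, 43.9 and 46.1 of these sums. The part of these other cells in the members' differences was not tested. In the authors' deposited tables against sham, macrophage genes were higher in 4 of 17 for untreated endothelial injury, 13 of 17 with exosomes and 14 of 17 with the mimic, where the members had 9, 5 and 5 of 10. Of all genes, 3.3%, 3.35% and 3.93% were higher in the same comparisons. Their folds and standard errors differ in scale, and why these counts differ was not tested.

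**Figure D5:**
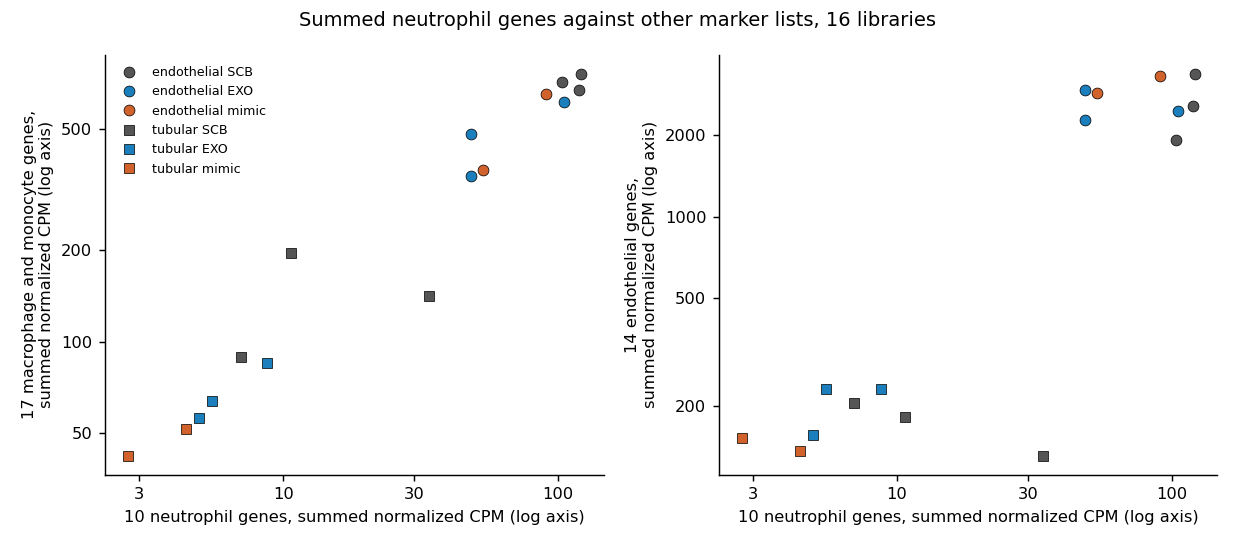
Summed normalized CPM of the 10 genes (horizontal log axis) against that of 17 macrophage and monocyte genes (left) and 14 endothelial genes (right, vertical log axes) in 16 libraries; circles are endothelial and squares tubular libraries, colored by treatment. Scrambled-miRNA libraries of the endothelial fraction hold the highest macrophage sums, 675.8 or more.

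Ligands that draw and mobilise neutrophils, the chemokines that bind CXCR2 and G-CSF, had 4 of 9 genes testable in endothelial cells. None was called by edgeR with exosomes or mimic. With exosomes 3 had an unadjusted p under 0.05, against 11.4% of genes, and DESeq2 called 3 (Cxcl2, Cxcl3 and Ppbp) lower, against 0.766%. With the mimic the counts were 3, against 19.5% of genes, and 1 (Cxcl3), against 3.94%. The median folds were -2.26 and -1.54. Cxcl2 stood at 42.1 to 44.0 normalized CPM with scrambled miRNA, 9.48 to 27.3 with exosomes and 12.1 to 26.1 with the mimic (folds -1.48, SE 0.432, adjusted p = 0.249, and -1.17, SE 0.487, adjusted p = 0.232). Cxcl3 stood at 2.2 to 7.06, 0.0836 to 0.27 and 0 to 0.0817 (folds -4.78, SE 0.753, adjusted p = 0.184, and -6.39, SE 0.983, adjusted p = 0.0545), Ppbp, also made by platelets, at 2.92 to 13.7, 0.749 to 0.962 and 0.633 to 3.08, and Cxcl1 at 23.1 to 35.3, 4.66 to 28.8 and 12.6 to 16.1. Csf3, the gene of G-CSF, had 12 reads at most in any endothelial library. The scrambled-miRNA range was not reached by any treated library for Cxcl2 and Cxcl3. Of all genes, 5.96% were lower without overlap with exosomes and 21.8% with the mimic. In tubular cells the Cxcl1 fold by edgeR was 0.37 with exosomes (SE 0.877, adjusted p = 0.833) and -1.52 with the mimic (SE 1.03, adjusted p = 0.501). Those of Cxcl2 were -1.84 (SE 1.12, adjusted p = 0.348) and -2.04 (SE 1.27, adjusted p = 0.461). Cxcl1 was lower in endothelial than in tubular libraries by edgeR (-1.5, SE 0.528, adjusted p = 0.0217).

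Of 12 other interleukin-1 pathway genes, all testable in endothelial cells, none was called by edgeR with exosomes (median -0.26) or mimic (median -0.37). With exosomes 2 had an unadjusted p under 0.05, against 11.4% of genes, and DESeq2 called 1 lower, against 0.766%. With the mimic the counts were 3, against 19.5% of genes, and 2, against 3.94%. All 12 were higher in endothelial than in tubular libraries by edgeR, where 36.3% of genes were. Only 8 had enough reads to be tested in tubular libraries alone, so the filter favours the others being higher. The most abundant were Pycard, the inflammasome adaptor (17.3 ± 3.93 TPM, n = 8), and Myd88, the adaptor of the interleukin-1 receptor (12.6 ± 4.1 TPM). Among calprotectin receptors, TREM1 partners and metalloproteinase inhibitors, 10 of 13 were testable and none was called with either treatment in endothelial cells by edgeR or DESeq2. An unadjusted p under 0.05 was found for 0 with exosomes and 3 with the mimic, against 11.4% and 19.5% of genes. Tyrobp, the gene of DAP12, stood at 21.8 ± 6.49 TPM in endothelial and 2.35 ± 0.822 TPM in tubular libraries. Of 32 other neutrophil genes 19 were testable in endothelial cells and none was called by edgeR. With exosomes 4 and with the mimic 5 had an unadjusted p under 0.05, against 11.4% and 19.5% of genes. The medians were -0.46 with exosomes and -0.65 with the mimic. DESeq2 called 2 lower with exosomes, against 0.766% of genes. With the mimic it called 4 lower, against 3.94%, and 1 higher, against 4.36%.

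In tubular cells 3 genes of the other neutrophil, adhesion and macrophage lists were lower with exosomes by edgeR. They were 1 of 9, 1 of 7 and 1 of 15 genes tested, where 2.41% of 14913 genes were lower. Lcn2, the gene of NGAL, which injured tubules also make, fell by 4.09 (SE 0.971, adjusted p = 0.0469), Icam1, an endothelial and epithelial ligand of leukocyte integrins, fell by 1.80 (SE 0.277, adjusted p = 0.0243), and Cd14, a coreceptor for bacterial lipopolysaccharide, fell by 3.74 (SE 0.728, adjusted p = 0.0326). Cd14 was at 9.32 to 105.8 normalized CPM with scrambled miRNA and 4.06 to 5.3 with exosomes. Leaving out 1 library at a time, the folds ran from -4.56 to -2.90 for Lcn2, the latter without scrambled-miRNA replicate 3, from -2.09 to -1.54 for Icam1 and from -4.27 to -3.08 for Cd14. The adjusted p ran from 0.0255 to 0.18 for Lcn2, 0.0019 to 0.131 for Icam1 and 0.00101 to 0.149 for Cd14, and 5, 4 and 4 of the 8 left-out fits no longer called them.

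Among the members the pattern over the 8 endothelial libraries was shared unevenly. On log2 normalized CPM, Pearson's r between pairs ran from -0.117 (Cxcr2 and Mmp9) to 0.899 (Csf3r and Il1b), libraries sharing group and depth. Each member was also set against the mean z score of the other 9. The closest was S100a9 (r = 0.909) and the farthest was Cxcr2 (0.308). The mean z score of all 10 was 0.45, 0.92 and 0.97 in the scrambled-miRNA libraries, -1.14, -0.01 and -0.72 with exosomes and -0.69 and 0.22 with the mimic. The nearest genes outside the list, of 13987 with at least 20 reads on average, were Dpep2 (r = 0.982), Gm13597 (0.979), Shc1 (0.976), Cxcl2 (0.962), Nelfb (0.958), Dok4 (0.957), Cldn14 (0.953), Osm (0.947), Creb5 (0.946) and Phgdh (0.945). In the 8 tubular libraries, over the 5 members tested, they were Mmd (0.977), Vcam1 (0.967), Hdac7 (0.965), Kdm1a (0.963), Btg1 (0.961), Cmtm3 (0.954), Golm1 (0.944), Ermp1 (0.942), Cd44 (0.941) and Sec14l2 (0.937). Mean z scores of other lists were also set against the members' mean in endothelial libraries. The 19 other neutrophil genes tested had r = 0.863, the 17 macrophage genes 0.832 and the 14 endothelial genes 0.203. Lymphocyte genes had -0.189, proximal tubule genes -0.322 and thick ascending limb genes -0.515.

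The reads of a gene were spread over its annotated transcripts in ways that bear on TPM. All S100a8, Retnlg and Mmp8 reads were assigned to 1 transcript each. For Il1b 91.9% of endothelial reads went to the coding transcript Il1b-201. It gave 27.7, 29.4 and 23.0 of the gene's 50.3, 48.1 and 41.3 TPM in endothelial scrambled-miRNA libraries. The rest of that TPM came from shorter noncoding transcripts. For Csf3r 86.7% of endothelial reads went to the coding transcript Csf3r-201 and 10.3% to the short noncoding Csf3r-203. For Il1r2 23.6% of endothelial reads went to Il1r2-204, a transcript annotated for nonsense-mediated decay, and for Mmp9 12.8% went to the noncoding Mmp9-204.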

How the data were processed

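Messenger RNA of 28 samples in 10 groups was measured; 16 libraries of 6 groups had per-sample files. The tools named in the submitters' processing notes are Salmon 0.13.1 and DESeq2, with build GRCm38; their settings are not given in the sources used here. The estimated counts per transcript were deposited by the authors unnormalized. TPM values were computed by the authors in the same deposited files. The log2 folds, their standard errors and the p-values and adjusted p-values of 12 comparisons were deposited by the authors, first-named group over second. The base mean in those deposited tables, a signal averaged by the authors over normalized libraries, was used as a level.

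Transcripts (136202) were summed to 53392 genes, of which estimated counts were rounded. Endothelial (16316 genes) and tubular (14913) libraries were fitted separately, and jointly (17143) with edgeR 4.0.16 in R 4.3.3: filterByExpr (minimum count 10, total 15), TMM, quasi-likelihood F tests, Benjamini-Hochberg adjustment at 0.05. The call rule was tested on simulated data. DESeq2 1.42.0, other normalization, no filter, left-out libraries, a length offset and replicate blocks were alternatives; TPM in place of CPM was added after seeing the data. Depth was 8273783 to 25326882 reads, and a count of 0 was read as up to 3 reads. The members and all lists were chosen with earlier results of these data known. Named genes were all 10 members, list genes that passed a test between treatments (5 a list at most), otherwise up to 4 a list by endothelial TPM, and the 10 nearest genes by correlation; Csf3, Ly6g and other defining genes, and the interaction examples, were named after their values were seen.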

Additional observations from a re-analysis of the deposited data

Results flagged for a closer look

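Over 20 tests of the 10 genes in 8 libraries per cell type, 7 genes had 1 library far from the others by Dixon's criterion, and it was replicate 2 of the tubular scrambled-miRNA group each time. Its normalized CPM was 8.54 for S100a8, 5.63 for S100a9, 2.66 for Csf3r, 12.6 for Il1b, 0.469 for Retnlg, 0.375 for Mmp8 and 0.751 for Il1r2. The next libraries stood at 0.973, 1.49, 0.964, 5.37, 0.0695, 0.0736 and 0.139. Chance gives about 1 such value in 20 groups if values are normally distributed. That does not hold here, since Retnlg was at 0 in 5 and Mmp8 and Il1r2 in 6 of the 8 tubular libraries. All 7 come from the same library, so they are not independent of each other. The 8 libraries also span 3 treatments.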

How the results depend on the processing

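The count of members higher in endothelial than in tubular libraries was 9 under every alternative run. Of all genes, 36.3% were higher in the main fit and 20.7% without the low-count filter. For Trem1, Retnlg, Mmp9, Mmp8 and Il1r2, which passed that filter through the endothelial libraries, the steady count supports nothing. No endothelial or tubular member was called against scrambled miRNA, but this depended on the setting. With DESeq2, 2 were called for endothelial exosomes (0.766% of all genes lower), 1 for tubular exosomes (6.05%), 2 for the tubular mimic (3.17%) and 1 for the interaction with the mimic (1.88% higher). Without the low-count filter the counts were 3 and 2 for endothelial exosomes and mimic (1.09% and 3.7% of genes lower), 1 for endothelial mimic against exosomes (0.208% higher), 2 and 4 for tubular exosomes and mimic (3.82% and 2.8% lower), and 3 for the interaction with the mimic (2.75% higher). Leaving out 1 library at a time gave 0 to 1 for the tubular mimic, where 0 to 494 of all genes were called in either direction. The causes were not tested.

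Some uncalled folds changed sign. For endothelial mimic against exosomes, the ranges over left-out libraries were -0.72 to 0.38 for Csf3r, -0.55 to 0.28 for Cxcr2, -0.32 to 0.74 for Mmp9 and -0.34 to 0.57 for Il1b. In tubular cells they were -0.50 to 0.21 for Cxcr2 with exosomes, and for mimic against exosomes -5.53 to 0.33 for S100a9 and -0.70 to 0.01 for Cxcr2. With the replicate block the Il1b fold for endothelial mimic against exosomes was -0.0049, and the block changed no call of a member (0 in each treatment comparison, 9 between cell types). Same-numbered libraries did not deviate together throughout, so the numbers were not taken to pair them. Few reads limit Mmp8, Il1r2 and Retnlg in tubular cells, and the tubular differences of S100a8, S100a9 and Il1b lean on 1 library.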
